A study of Drosophila melanogaster with 4 samples.

Results

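Respiratory complex I, the NADH:ubiquinone oxidoreductase of the mitochondrial inner membrane, was examined through the 40 genes, of 17023 counted, whose FlyBase symbol starts with ND-. These are nuclear genes, and 34 of them are named as subunits of the complex. Among the 34 is ND-MLRQ, the counterpart of NDUFA4, which in mammals is found with complex IV. The other 6 are paralogs that carry the name of a subunit with a letter L (ND-20L, ND-24L, ND-49L, ND-51L1, ND-51L2 and ND-B14.5AL). RNA of *Drosophila melanogaster* ovaries, taken from flies 2 to 3 days after eclosion, had been sequenced from 4 libraries. In 2 of them the flies carried UAS-Dcr2 and nosGAL4 with an RNAi construct against *bam*, and in the other 2 they carried UAS-Dcr2 and nosGAL4 with one against *Nipped-A*. The nosGAL4 driver is active in germ cells, so the follicle cells, muscle sheath and other somatic cells of the dissected ovary were not the cells targeted. Dcr2 strengthens RNA interference, and both genotypes carried it. Ovaries without a knockdown were not among the 4 libraries, so each value below sets one knockdown against the other.

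Complex I takes electrons from NADH and passes them to ubiquinone, and uses the energy to pump protons across the inner membrane. Its N module binds NADH and holds the flavin and the first iron-sulfur clusters, its Q module leads the electrons to ubiquinone, and its membrane arm, with a proximal and a distal part, pumps the protons. The conserved core of the membrane arm is encoded by mitochondrial DNA, while the N and Q modules and all accessory subunits come from the nucleus and must be made in matching amounts. In *Drosophila* ovaries germline stem cells divide to give daughters that need *bam* to differentiate, and mitochondria are remodelled along that path. *Nipped-A* encodes a scaffold protein of the SAGA and Tip60 histone acetyltransferase complexes.

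The libraries held 21193517 to 47825006 counts. Values are library-scaled counts (CPM, with TMM factors), and log2 fold changes are those of the libraries labelled *Nipped-A* RNAi over those labelled *bam* RNAi, from edgeR's quasi-likelihood test over 10245 genes with Benjamini-Hochberg adjustment and a threshold of 0.05. The *bam* transcript stood at 4.70 and 6.52 CPM in the *bam* RNAi libraries and at 29.0 and 16.9 CPM in the others, with a log2 fold change of 2.03 ± 0.38 (SE, edgeR adjusted p = 0.0254). The *Nipped-A* transcript went against its label: it stood at 287 and 247 CPM in the *bam* RNAi libraries and at 430 and 439 CPM where *Nipped-A* itself was the labelled target, a log2 fold change of 0.70 ± 0.14 (edgeR adjusted p = 0.0287). With the gene-length trend removed (described further on) it was 0.31 (edgeR adjusted p = 0.131), and with upper-quartile scaling 0.49 (0.0524), so that the call is lost while no fit puts it lower in the libraries labelled for its knockdown. Every direction given below is therefore that of libraries so labelled, called here *Nipped-A*-labelled libraries. No label says whether replicates were separate groups of flies; the p-values hold for the spread among these libraries, which may be technical.

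Complex I transcripts were lower in the *Nipped-A*-labelled libraries than in those labelled *bam* RNAi. Of the 40 genes, 32 were abundant enough to be tested, each at 4.36 CPM or more in every library. In edgeR's test 24 of the 32 were called lower and 0 higher, while 8.31% of all genes tested were called lower and 11.3% higher. The median log2 fold change was -0.81 over the 32 genes and -0.00 over all genes tested, and all 32 values were below 0, as were 50.1% over all genes. Both *Nipped-A*-labelled libraries lay below both of *bam* RNAi for each of the 32 genes, as they did for 35.3% of all genes tested. With DESeq2 31 were called lower, the exception being ND-15, against a background of 13.5%. The calls rest on both *bam* RNAi libraries: without either of them edgeR called 0 of the 32 and 0 of all genes, with 23 or 17 of the 32 at an unadjusted p below 0.05, and DESeq2 called 12 or 3. In these edgeR fits the spread came from the *Nipped-A*-labelled pair alone, and the median log2 fold change of the members was -0.87 or -0.83. In RNA from whole ovaries, fewer cells of a type and less RNA per cell cannot be told apart.

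The whole set took 3810 and 4170 CPM in the *bam* RNAi libraries and 2185 and 2324 CPM in the *Nipped-A*-labelled libraries. The means were 3990 ± 255 and 2254 ± 98.4 CPM (SD, n = 2 each), a ratio of 1.77. The 2 groups did not overlap, but the exact two-sided permutation test gave p = 0.333, the smallest that 2 libraries against 2 allow. The log2 fold changes of the members ran from -1.32 for ND-AGGG to -0.38 for ND-15, and the SD among them was 0.21, near the median standard error of a single member, 0.17.

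**Figure D1:**
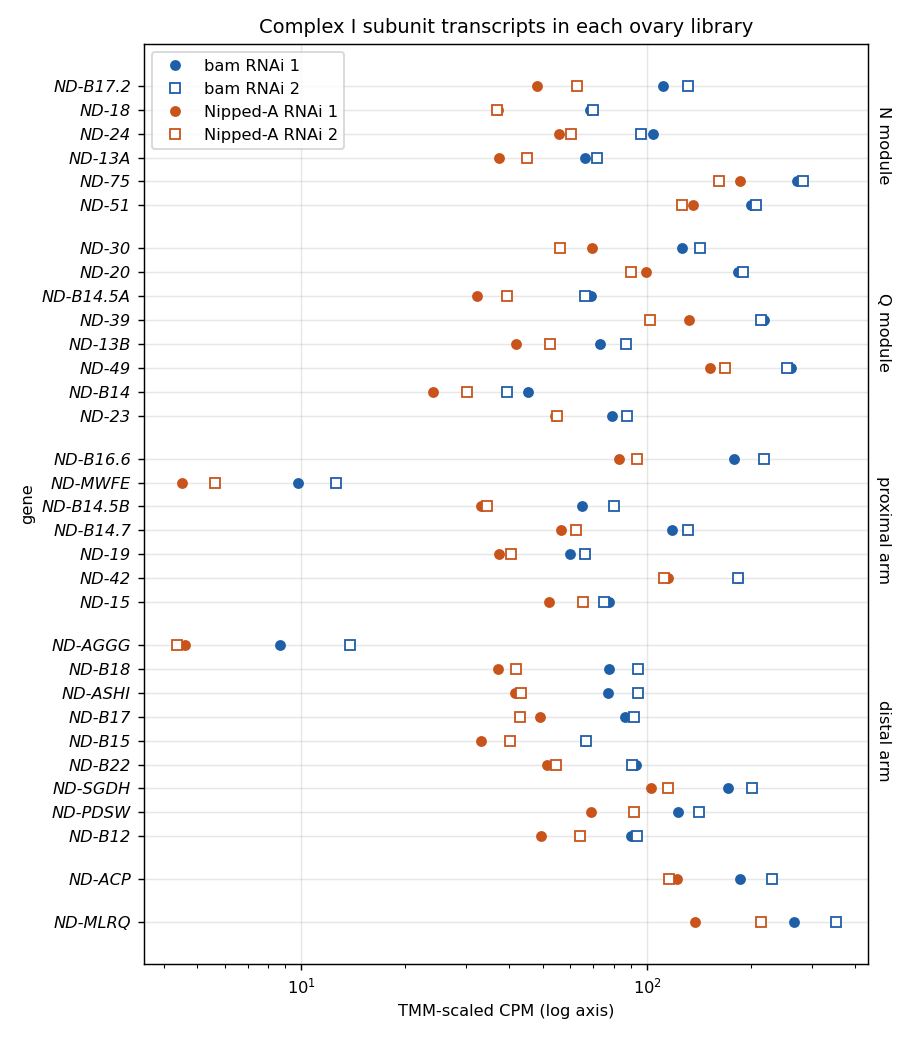
Levels of the 32 tested complex I genes in each of the 4 libraries, in TMM-scaled CPM on a log axis, grouped by module; each point is one library. For every gene both points of the *Nipped-A*-labelled libraries lie below both points of *bam* RNAi, from ND-MLRQ with 266 and 351 against 138 and 213 CPM down to ND-AGGG with 8.65 and 13.8 against 4.62 and 4.36 CPM.

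All 6 tested genes of the N module were called lower, with a median log2 fold change of -0.77. Of all genes tested, 8.31% were called lower, and the median over all was -0.00. ND-B17.2, an accessory subunit that joins late in assembly, fell furthest, from 111 and 131 CPM to 48.1 and 62.9 CPM (log2 fold change -1.13 ± 0.19, edgeR adjusted p = 0.0218). ND-18, the fly counterpart of NDUFS4, whose loss causes Leigh syndrome in humans, read 68.3 and 69.9 CPM against 37.0 and 36.9 CPM. Its replicates were nearly equal in both groups, and it fell by 0.90 on the log2 scale (SE 0.16, edgeR adjusted p = 0.0230). ND-24, an iron-sulfur subunit, went from 104 and 95.9 CPM to 55.8 and 60.1 CPM (log2 fold change -0.79 ± 0.15, edgeR adjusted p = 0.0254).

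ND-51, which holds the flavin and binds NADH, had the smallest change of the module. Its levels were 200 and 207 CPM in *bam* RNAi and 136 and 126 CPM in the *Nipped-A*-labelled libraries (log2 fold change -0.64 ± 0.13, edgeR adjusted p = 0.0292). The other two called genes were ND-75, the largest iron-sulfur subunit of the complex, at -0.67, and ND-13A, a zinc-binding accessory subunit, at -0.74. ND-B8, the remaining gene of the module, was not tested: it had 5 and 0 counts in the *bam* RNAi libraries and 3 and 1 in the others. A direction is not detectable at that depth. ND-51 of the same module had 20821 counts over the 4 libraries.

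In the Q module 6 of 8 genes were called lower, beside 8.31% of all genes tested, and the module's median log2 fold change was -0.83. ND-20, which carries the last iron-sulfur cluster before ubiquinone, had the smallest adjusted p of the module. It read 183 and 189 CPM in *bam* RNAi and 99.2 and 89.8 CPM in the *Nipped-A*-labelled libraries (log2 fold change -0.97 ± 0.13, edgeR adjusted p = 0.0151). ND-49, which forms the ubiquinone site together with ND-20, went from 261 and 254 CPM to 152 and 168 CPM, with a log2 fold change of -0.69 ± 0.13 (edgeR adjusted p = 0.0258). Both core subunits of the ubiquinone site had groups that did not overlap, as did all 32 tested members and, in this direction, 35.3% of all genes tested.

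ND-30, a core subunit without a cluster of its own, had the largest change of the Q module. It stood at 126 and 142 CPM against 69.3 and 56.0 CPM (log2 fold change -1.09 ± 0.17, edgeR adjusted p = 0.0182). ND-39, an accessory subunit with the fold of a short-chain dehydrogenase, had 218 and 214 CPM against 132 and 102 CPM, and it fell by 0.88 on the log2 scale (SE 0.17, edgeR adjusted p = 0.0261). ND-B14.5A, the parent of one of the paralogs, read 68.8 and 66.0 CPM against 32.3 and 39.4 CPM, with a log2 fold change of -0.91 ± 0.18 (edgeR adjusted p = 0.0301). ND-23, which holds a pair of iron-sulfur clusters, was called at -0.61 with an adjusted p of 0.0473. The 2 genes that missed the threshold in edgeR's test were ND-13B at -0.77, with an adjusted p just above it, and ND-B14 at -0.64 with 0.0876.

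The proximal membrane arm had the lowest median log2 fold change of the 4 modules, -1.07 over 7 genes. Of these 5 were called lower, beside 8.31% of all genes tested. No test between modules was made. ND-B16.6, the fly counterpart of the mammalian subunit GRIM-19, read 178 and 218 CPM in *bam* RNAi against 83.1 and 93.8 CPM (log2 fold change -1.16 ± 0.16, edgeR adjusted p = 0.0156). The gene lies on chromosome X from 6349016 to 6350401 on the dm6 assembly. ND-B14.7, the counterpart of NDUFA11, had 118 and 131 CPM against 56.5 and 62.2 CPM, a log2 fold change of -1.07 ± 0.15 (edgeR adjusted p = 0.0151). In these 2 genes every *Nipped-A*-labelled library was far below the lower *bam* RNAi library.

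ND-B14.5B went from 64.8 and 80.3 CPM to 33.0 and 34.4 CPM, and its log2 fold change was -1.11 ± 0.19 (edgeR adjusted p = 0.0215). ND-42, a subunit related to nucleoside kinases, had 183 CPM in both *bam* RNAi libraries and 115 and 112 CPM in the others (log2 fold change -0.69 ± 0.12, edgeR adjusted p = 0.0236). ND-19, the counterpart of NDUFA8, was called at -0.70 with an adjusted p of 0.0453. The genes not called were ND-15 and ND-MWFE. ND-15, the counterpart of NDUFS5, had the smallest change of all 32: 77.6 and 75.3 CPM against 51.9 and 65.4 CPM, a log2 fold change of -0.38 ± 0.18 with an edgeR adjusted p of 0.178.

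Of the distal membrane arm 9 genes were tested and 6 called lower, beside 8.31% of all genes tested. The median log2 fold change of the 9 was -0.87. ND-B18, which faces the intermembrane space, stood at 77.7 and 94.1 CPM against 37.1 and 41.8 CPM (log2 fold change -1.12 ± 0.18, edgeR adjusted p = 0.0194). ND-B17 went from 86.4 and 92.0 CPM to 48.9 and 42.8 CPM, which is -0.96 ± 0.16 on the log2 scale (edgeR adjusted p = 0.0210). ND-ASHI read 77.1 and 94.4 CPM against 41.4 and 43.2 CPM, with a log2 fold change of -1.02 ± 0.18 (edgeR adjusted p = 0.0221). For these 3 genes the lower *bam* RNAi library stood well above the higher of the other 2.

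ND-B22, a subunit of the LYR family that holds an acyl carrier protein in place, had 93.1 and 90.5 CPM against 51.4 and 54.4 CPM (log2 fold change -0.80 ± 0.15, edgeR adjusted p = 0.0248). Its exons share 227 bases with the gene CG31855 on the opposite strand, and its count is uncertain to that extent. ND-SGDH at -0.77 and ND-B15 at -0.87 were also called, with adjusted p-values of 0.0284 and 0.0330. The genes not called were ND-PDSW at -0.71, ND-B12 at -0.69 and ND-AGGG at -1.32, with adjusted p-values of 0.0541, 0.0553 and 0.0642. ND-MNLL, the last gene of this arm, had 0 counts in the 4 libraries. All 720 of its exonic bases lie on the same strand as exons of CG45089, which was at 0 as well, so its reads cannot be assigned to either gene and nothing can be said of its level.

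ND-ACP, the mitochondrial acyl carrier protein, also serves fatty acid synthesis outside the complex. It stood at 186 and 230 CPM in *bam* RNAi and at 122 and 116 CPM in the *Nipped-A*-labelled libraries, and its log2 fold change was -0.80 ± 0.16 (edgeR adjusted p = 0.0279). ND-MLRQ, the counterpart of NDUFA4, which in mammals is found with complex IV, had 266 and 351 CPM against 138 and 213 CPM. Its libraries spread more than those of ND-ACP, and its log2 fold change of -0.81 ± 0.26 was not called (edgeR adjusted p = 0.0794).

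**Figure D2:**
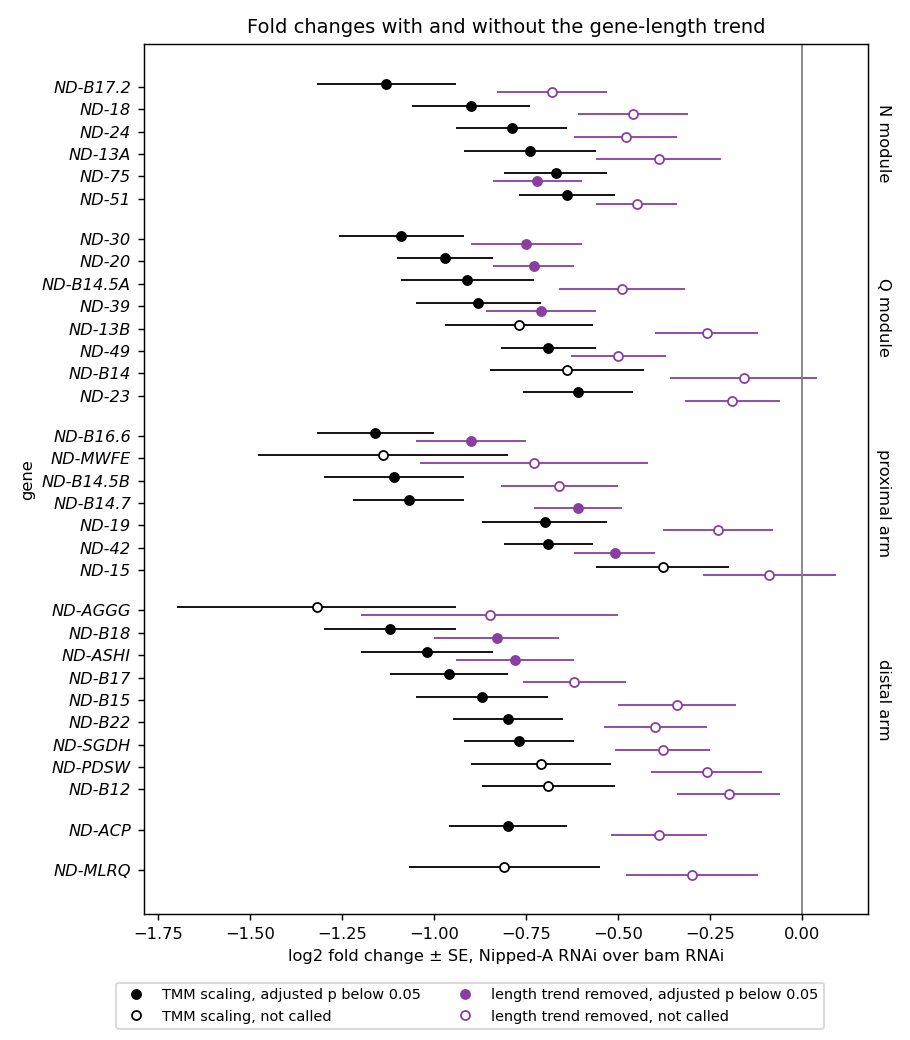
Log2 fold changes of the 32 tested complex I genes (*Nipped-A*-labelled over *bam* RNAi libraries) with their standard errors, by module, as fitted with TMM scaling (black) and with the trend on gene length removed (purple, described further on); filled points passed the edgeR threshold of 0.05. All 32 black points lie below 0, from -1.32 for ND-AGGG to -0.38 for ND-15, with 24 filled, and the purple points lie nearer to 0 for all but ND-75, with 9 filled.

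The members differ widely in level per length of exon. In the *bam* RNAi libraries ND-MLRQ had the highest level, 573 CPM per kb, followed by ND-ACP at 247 and ND-SGDH at 209 CPM per kb. At the other end stood ND-AGGG with 15 and ND-MWFE with 13.3 CPM per kb, so that the range was 43.1-fold. The remaining 27 genes stood between 62.0 CPM per kb for ND-ASHI and 178 CPM per kb for ND-PDSW. Of the 31 pairs of neighbours in this order, 23 had *bam* RNAi libraries that overlapped. The 8 pairs that did not overlap include ND-MLRQ with ND-ACP, ND-SGDH with ND-PDSW, and ND-ASHI with ND-AGGG. The SD of the log2 level across members was 1.02 and 0.99 in the *bam* RNAi libraries and 1.06 and 1.10 in the others, and the median level was 110 and 110 against 66.0 and 62.7 CPM per kb.

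The 2 rare subunit genes had wide errors. ND-MWFE, the counterpart of NDUFA1, had 9.77 and 12.6 CPM against 4.52 and 5.62 CPM (log2 fold change -1.14 ± 0.34, edgeR adjusted p = 0.0708). It shares 128 exonic bases with Nrk on its own strand and 167 with TppII on the opposite strand, and its count is uncertain for that reason. ND-AGGG had 8.65 and 13.8 CPM against 4.62 and 4.36 CPM. Their log2 fold changes were among the lowest of the 32, but neither passed edgeR's test.

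The 6 paralogs were at or near 0 in both groups. ND-51L1 had 3 and 0 counts in the *bam* RNAi libraries and 5 and 3 in the *Nipped-A*-labelled libraries. ND-51L2 had 3, 0, 4 and 1 counts in the same order, while their parent ND-51 had 20821 over the 4 libraries. ND-49L had 10, 0, 0 and 1 counts, so that 10 of its 11 came from a single library of *bam* RNAi. ND-20L had 4, 0, 0 and 0, ND-24L had 2, 0, 0 and 1, and ND-B14.5AL had 0 in each.

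As a share of the counts of paralog and parent together, ND-51L1 had the highest with 0.0528% (95% exact Clopper-Pearson interval 0.0264% to 0.0945%) and ND-20L the lowest of those with a count, 0.0231% (0.0063% to 0.0592%). ND-49L stood at 0.0428% (0.0214% to 0.0765%), ND-51L2 at 0.0384% (0.0166% to 0.0757%) and ND-24L at 0.0308% (0.00636% to 0.0901%). For ND-B14.5AL, with 0 counts beside its parent's 6258, the upper end of the same interval is 0.0589%, and the simpler limit of 3 counts is 0.0479%. These intervals and limits cover counting error only. Where parent and paralog share sequence, reads of one could be counted for the other, and their likeness was not examined. No fold change is given for any paralog, since both groups are at or near the limit that a count of 0 allows, 0.0627 to 0.142 CPM in a single library.

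Gene length moved with the comparison. Across the genes tested, the median log2 fold change by 10 groups of exonic length was -0.47 in the shortest group and 0.43 in the longest. Complex I genes are short: the tested members had a median exonic length of 857.5 bases, and 31 of 32 were shorter than the median tested gene of 1998 bases. The members lay below the genes of their own length: in the shortest group 12 members had a median of -0.84, in the next 10 had -0.80 against -0.30 for all genes, and in the third 4 had -1.05 against -0.21.

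With the length trend removed from each library, all 32 members kept a log2 fold change below 0, as did 46.6% of all genes tested, and the median was -0.49 against 0.05 for all genes. Then 9 of the 32 were called lower, against 6.25% of all genes tested: ND-20, ND-30, ND-39, ND-42, ND-75, ND-ASHI, ND-B14.7, ND-B16.6 and ND-B18. ND-B16.6 had -0.90 (edgeR adjusted p = 0.0297) and ND-20 had -0.73 (0.0245) in that fit. By module the calls were 1 of 6 in the N module, 3 of 8 in the Q module, 3 of 7 in the proximal and 2 of 9 in the distal arm. The module medians of that fit were -0.47, -0.50, -0.61 and -0.40 in the same order. Whether length itself, or RNA quality with it, had a part in the lower values was not tested.

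**Figure D3:**
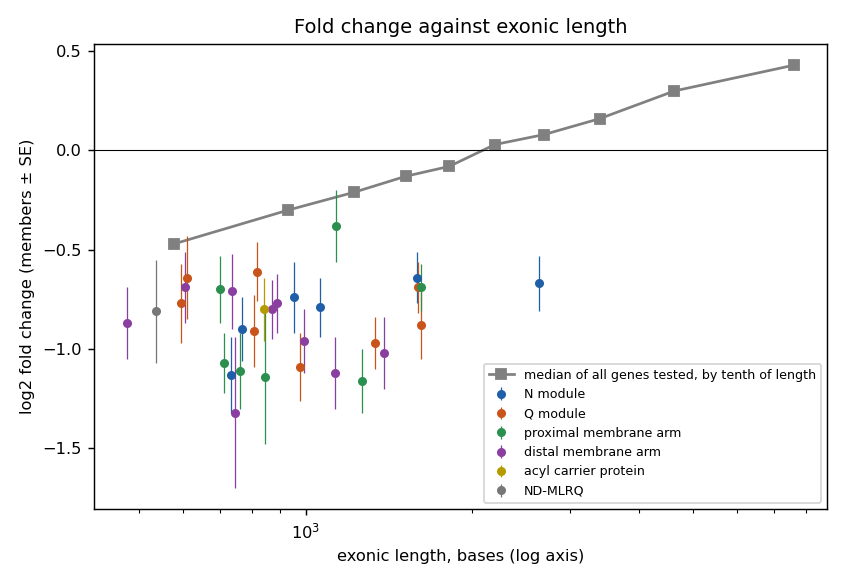
Log2 fold change (*Nipped-A*-labelled over *bam* RNAi libraries) against exonic length in bases on a log axis; coloured points are the 32 complex I genes by module, with standard errors, and grey squares are the medians of all genes tested in 10 groups of length. The squares climb from -0.47 in the shortest group to 0.43 in the longest, and the complex I genes, 31 of which are shorter than 1998 bases, lie below them.

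The 7 complex I genes of the mitochondrial genome, mt:ND1 to mt:ND6 with mt:ND4L, were listed at 0 counts in each library, so the mitochondrial part of the membrane arm could not be set beside the nuclear part. The nuclear subunits of the other respiratory complexes, II to V, were mostly lower. Of 42 listed, 36 were tested, 29 were called lower and 0 higher, with a median log2 fold change of -0.91. The 42 include genes that carry the name of a subunit with a letter L, most of them at or near 0 counts. Of these, ATPsynepsilonL (-0.05) and UQCR-6.4L (1.82) are among the 36 tested, and neither was called. Over all genes tested 8.31% were called lower and 11.3% higher, with a median of -0.00. ATPsyngamma, the rotor subunit of ATP synthase, went from 495 and 493 down to 258 and 238 CPM (log2 fold change -1.0 ± 0.13, edgeR adjusted p = 0.0140), and SdhD, a membrane anchor of complex II, from 112 and 127 CPM to 54.4 and 47.0 CPM (-1.23 ± 0.16, edgeR adjusted p = 0.0146). With the length trend removed 20 of the 36 were called lower, and the median was -0.56. Over all genes tested 6.25% were called lower in that fit, with a median of 0.05.

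Further subunit genes do not carry an ND- symbol but have a complex I synonym in the RefSeq gene table, and were looked up after the values of the members were known. NP15.6 had 125 and 133 CPM against 64.3 and 60.2 CPM, with a log2 fold change of -1.05 ± 0.14 (edgeR adjusted p = 0.0144). NdufA3 at -1.06, NdufV3 at -1.05 and CG40472 at -3.50 were also called lower, so that 4 of 4 were, beside 8.31% of all genes tested. With the length trend removed 0 of 4 were called: CG40472 had a log2 fold change of -2.88 (edgeR adjusted p = 0.0790) and the other three had values of -0.56 to -0.49. CG40472 was rare, at 2.02 and 3.11 CPM against 0.326 and 0.0937 CPM.

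Assembly factors help build the complex without staying in it. Of CIA30, ECSIT, sicily and the counterparts of NDUFAF3 (CG5569) and NDUFAF4 (CG11722), 0 of 5 were called by edgeR, 1 had an unadjusted p below 0.05, and DESeq2 called 1, sicily, lower. Over all genes tested edgeR called 8.31% lower and 11.3% higher, and DESeq2 called 13.5% lower. Beside these shares the counts of so short a list say nothing particular about it. CG5569 stood at 31.3 and 31.7 CPM against 25.3 and 23.4 CPM, a log2 fold change of -0.37 ± 0.19 (edgeR adjusted p = 0.208). That value becomes 0.07 with the length trend removed. The largest change of the list was that of sicily, the counterpart of NDUFAF6, at -0.79 ± 0.24, with an edgeR adjusted p of 0.0755. ECSIT went the other way, at 15.7 and 13.9 CPM against 22.8 and 17.4 CPM (log2 fold change 0.45 ± 0.25, edgeR adjusted p = 0.248). With the length trend removed ECSIT had 0.69 (edgeR adjusted p = 0.112). No test of the difference between assembly factors and subunits was made.

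Of 10 regulators of mitochondrial gene expression and mitochondrial DNA, 9 were tested, 0 were called lower and 1 higher, a share near the 11.3% of all genes called higher, so that the count says nothing particular about the list. The gene called was srl (spargel), the fly counterpart of the PGC-1 coactivators, which promote the expression of nuclear genes for mitochondrial proteins. It stood at 165 and 154 CPM in *bam* RNAi and at 403 and 288 CPM in the *Nipped-A*-labelled libraries, a log2 fold change of 1.12 ± 0.19 (edgeR adjusted p = 0.0223). Its groups did not overlap, as was so in this direction for 3442 of the 10245 genes tested. Without the length trend it kept 0.87 (edgeR adjusted p = 0.0431).

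Many complex I genes lie head to head with another gene. A gene on the opposite strand starts within 500 bases upstream for 16 of the 40, and for 14 of the 32 tested, or 43.8%, while this holds for 30.8% of the protein-coding genes tested. In 12 pairs both genes were tested. In these pairs the neighbours had a median log2 fold change of -0.34 and their complex I partners one of -0.82, and 3 neighbours were called lower and 1 higher. Over all genes tested the median was -0.00, with 8.31% called lower and 11.3% higher. No test of the neighbours as a list was made.

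The neighbours named here were chosen after their values were seen. Those called lower were CG10151 beside ND-B15 (-2.20), Arpc5, a subunit of the Arp2/3 complex, beside ND-B17.2 (-0.88), and Cchl, a cytochrome c heme lyase, beside ND-42 (-0.59). Secp43, which starts 173 bases from ND-B8, was also called lower (-0.95), but ND-B8 was not tested and the pair is not among the 12. Ephrin, whose start lies 201 bases from that of ND-49, was higher, at 108 and 78.1 CPM against 165 and 171 CPM (log2 fold change 0.85 ± 0.19, edgeR adjusted p = 0.0371), while ND-49 was lower. The genes kdn, which encodes the citrate synthase of the mitochondrial matrix, and ND-B16.6 start 228 bases apart, and kdn had a log2 fold change of -0.58 ± 0.17 that was not called (edgeR adjusted p = 0.0630). With the length trend removed CG10151 was still called (-2.22), while Arpc5 (-0.57, edgeR adjusted p = 0.0592), Cchl (-0.35, 0.107), Secp43 (-0.68, 0.0698) and Ephrin (0.57, 0.0753) were not, nor was ND-49 (-0.50, 0.0595). In that fit spn-E, beside ND-23, was called lower (-0.59, edgeR adjusted p = 0.0393).

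**Figure D4:**
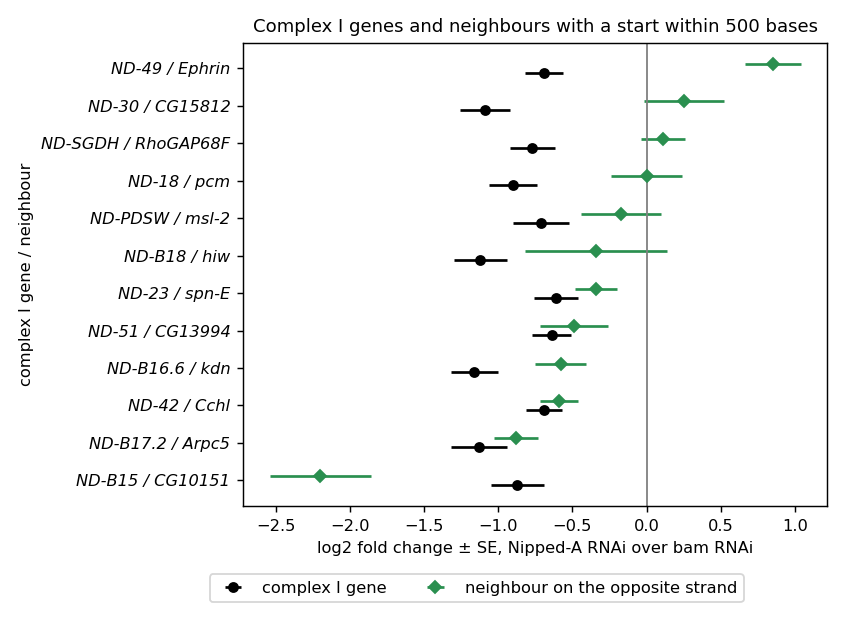
Log2 fold changes (*Nipped-A*-labelled libraries over *bam* RNAi) of 12 complex I genes and of the gene that starts within 500 bases upstream on the opposite strand, one pair per line, with standard errors. The complex I genes of these pairs have a median of -0.82 and the neighbours one of -0.34, with CG10151 lowest at -2.20 and Ephrin highest at 0.85.

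Exons of 16 of the 40 members overlap exons of a gene on the opposite strand, and the strand setting of the counting is not given in the sources used here. Among tested members the shares of exonic bases were largest in ND-B22 (26.1%), ND-MWFE (19.8%), ND-B16.6 (17.5%, with CG3847) and ND-15 (15.7%, with Pus10). The counts of these genes are uncertain to that extent. Of the 15 tested members with such an overlap 11 were called lower, with a median log2 fold change of -0.80, and of the 17 without one 13 were, with -0.81. Of all genes tested, 8.31% were called lower, and the median over all was -0.00.

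Markers of the cell types in a dissected ovary moved with the comparison too, and their part in the lower complex I values was not tested. The muscle sheath list had 11 of 14 genes called lower by edgeR and 0 higher. Over all genes tested the shares were 8.31% and 11.3%. Of that list Mf (-0.73), bt (0.38) and sls (0.19) were not called. Act57B, with the smallest adjusted p of the list, stood at 11120 and 11655 CPM against 2272 and 2364 CPM (log2 fold change -2.30). Act88F had the largest change of the list, at 86.4 and 81.0 against 0.916 and 0.187 CPM (-7.08). It was the rarest of the 14 in *bam* RNAi, and whether its reads come from the sheath was not tested. The list's summed level was 31777 and 31441 CPM in *bam* RNAi against 10250 and 13624 CPM. Of 6 hemocyte markers 4 were called lower and 1 higher, with sums of 8332 and 7341 against 3240 and 3345 CPM. Germ cell markers had 1 of 8 called lower (piwi) and 4 called higher, with sums of 1728 and 1647 against 2652 and 2283 CPM. The 12.5% called lower is near the 8.31% of all genes tested. The marker aub, at 195 and 188 against 138 and 108 CPM (log2 fold change -0.63), was not called (edgeR adjusted p = 0.052). With the length trend removed aub was called lower as well (-0.72, edgeR adjusted p = 0.0398), and 3 germ cell markers were called higher. Follicle cell markers had 2 of 9 called lower and 4 called higher, with sums of 6826 and 7151 against 12103 and 12863 CPM. Most of each sum is the yolk protein genes Yp1, Yp2 (2901 and 2994 against 5100 and 5281 CPM) and Yp3 (1407 and 1510 against 3812 and 3390 CPM). These were called higher, as was peb (1.74). The markers eya (-1.01) and mirr (-1.09) were called lower, and Fas3 (-0.18), tj (-0.38) and slbo (0.96) were not called. The sums thus mainly follow the yolk protein genes.

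All 9 gut genes were called higher, beside 11.3% of all genes tested. Their summed level was 4.82 and 5.54 CPM in *bam* RNAi and 1082 and 4196 CPM in the *Nipped-A*-labelled libraries. It thus differed between the replicates of that group as well. Of these genes LysE was at 0 in both *bam* RNAi libraries. Of 7 fat body genes 4 were called lower and 3 higher, with a median log2 fold change of -3.77. Their sum nonetheless went from 2015 and 2218 to 3618 and 4418 CPM, since most of it is Yp1 (1255 and 1513 against 2281 and 2997 CPM), which the follicle cell list also holds, and apolpp (493 and 419 against 1248 and 1317 CPM). Fbp1, Fbp2, Lsp1gamma and Obp99b were the 4 that were lower. The germ cell and follicle cell markers were detected in each group of ovaries.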

How the data were processed

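Poly(A) RNA of 2 *bam* RNAi and 2 *Nipped-A* RNAi ovary samples was sequenced from directional libraries, per the labels' protocols. For each library the authors deposited raw counts per gene. Alignment to dm6 with HISAT2 2.1.0, counting with featureCounts 1.6.0.4 and analysis with edgeR 3.16.5 are recorded in the submitters' processing notes. Annotation, strandedness and multi-mapping settings were not given in the sources used here. Of 17023 genes, 16647 had a symbol in Ensembl release 115, whose dm6 coordinates are used.

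Low counts were filtered (filterByExpr), libraries scaled by TMM, and groups compared with the two-sided quasi-likelihood test of edgeR 4.0.16 in R 4.3.3; p-values were adjusted over the 10245 genes tested. Standard errors are |log2 fold change| over the root of F. The library totals were 33844807, 23866988, 47825006 and 21193517 counts, and the biological coefficient of variation was 0.332. Replicates differed by more than sampling noise (median chi-square per gene 6.66 for the *bam* RNAi pair and 16.4 for the other). The length trend was removed as a lowess curve (span 0.3) of each library's deviation in log2 CPM (prior count 2) on log10 exonic length.

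Named with full values are the 2 targets; in each module the 4 members with the smallest adjusted p; the parents of paralogs; and of each other list the 2 most significant calls or, with none called, the most abundant gene. Of marker lists only examples are named. Members and lists were chosen with earlier results of these data known. The markers vas and wupA found no match by symbol. Alternatives were other scalings, DESeq2 1.42.0, limma-voom (limma 3.58.1), robust moderation, other filters, the length trend, a block on replicate number, and leaving out single libraries; DESeq2 with a library left out was added after seeing the data. Promoter sequences were not analysed here.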

Additional observations from a re-analysis of the deposited data

How the results depend on the processing

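Over the alternatives with all 4 libraries, each of the 32 tested complex I genes kept a negative log2 fold change, and the number called lower lay between 21 and 31 except where the length trend was removed. Then it was 9 in place of 24, and 8 with the replicate block as well, with medians of -0.49 and -0.49; upper-quartile scaling, which shifts the median of all genes by -0.21, gave a median of -1.02. That scaling called 853 genes higher and 1556 lower, against 1153 and 851. With the length trend removed the N, Q, proximal and distal modules had 1, 3, 3 and 2 calls, and with the block as well 2, 3, 1 and 2, in place of 6, 6, 5 and 6; complexes II to V then had 14 in place of 29. The replicate numbers share only a number (correlation of deviations -0.0756), and with the block alone 24 members were called, 21 of them among the 24. DESeq2 called 3611 genes in place of 2004, 1 assembly factor in place of 0 and 2 regulators in place of 1; upper-quartile scaling also called 1 assembly factor. CG5569 turned from -0.37 to 0.07 with the length trend removed and to 0.06 with the block as well; the cause of these changes was not tested.

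The calls rest on both *bam* RNAi libraries. Without *bam* RNAi replicate 1 or 2 edgeR called 0 of all genes and 0 members, although 23 and 17 members had an unadjusted p below 0.05, and DESeq2 called 12 and 3 (for all genes, with replicate 2 left out, 1150); without replicate 1 or 2 of the other group edgeR called 29 and 32 members, and DESeq2 called 3261 and 3810 of all genes. In these fits the lone sample is assumed to vary like the other group. Leaving out 1 library, the count ran from 0 to 4215 for all genes, 0 to 32 for members, 0 to 6, 0 to 8, 0 to 7 and 0 to 9 for the N, Q, proximal and distal modules, 0 to 33 for complexes II to V, 0 to 1 for assembly factors and 0 to 4 for regulators, while the members' median stayed between -0.87 and -0.77. Depth limits the paralogs and ND-B8, and 2 libraries per group limit the p-values.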
